A study of Mus musculus with 123 samples.

Results

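The inner cell masses described here were the 8 early and 8 late ICMs labelled Sox2 Ctrl, 16 of the 123 single-embryo libraries of the study, as their labels name them. Each came from a mating of Sox2 +/EGFP males with Sox2 flox/flox; Zp3-Cre females, whose Cre is expressed in the growing oocyte. These Ctrl embryos therefore lacked the maternal Sox2 allele, carried 1 intact paternal allele and showed no EGFP fluorescence. The EGFP-positive embryos of the same matings lacked Sox2 altogether and are called Sox2 KO. The strain label was B6C3F1. Embryos were recovered at E2.5 from superovulated females and grown in KSOM medium with the MEK inhibitor PD0325901 at 1 µM up to the early (E3.75) or late (E4.5) blastocyst. Immunosurgery, in which antibody and complement lyse the outer trophectoderm, then freed each ICM. Early and late ICMs thus differed in days of culture and inhibitor as well as in stage, and the groups contain no wild-type mother. The MWT embryos, from mothers with an intact gene, were left out of these groups. The comparison asked which transcripts change as the ICM matures when 1 Sox2 allele is present.

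In the mouse blastocyst the ICM holds cells that become epiblast, the pluripotent founder of the fetus, and cells that become primitive endoderm, the source of the yolk sac lining. FGF signalling through MEK directs cells to primitive endoderm, and blocking it with an inhibitor keeps the ICM mostly epiblast. Naive pluripotency is the state of the early epiblast, held by factors such as Oct4 (gene symbol Pou5f1), Sox2, Nanog and Klf4 and helped by LIF signalling through STAT3. The integrated stress response is a separate programme in which the factor ATF4 switches on genes of amino acid supply when cells are short of nutrients or under protein stress.

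Values below are CPM, the UMIs of a gene per mega-UMI of its library after scaling over these 16 embryos. A UMI is a unique molecular identifier, a random tag by which PCR copies of 1 molecule are counted once. A change is a log2 fold change, late over early. A gene was called when edgeR's quasi-likelihood test gave a Benjamini-Hochberg adjusted p under 0.05 and the change was at least 1. Early libraries held 812422 to 1051677 UMIs and late libraries 737753 to 929681, with 13310 ± 313 and 13484 ± 306 genes detected (mean ± SD, n = 8 each). At such totals 1 CPM is about 1 UMI in an embryo, so values of a few CPM rest on a few molecules. In an ICM measured whole, more cells of a type and more RNA per cell cannot be told apart. Nothing in the labels says whether embryos of a group shared a litter or a day, so the p-values measure the spread between these embryos.

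Before any gene is considered, the embryos can be placed on a line from early to late stage that other embryos define. Oct4 Ctrl embryos, the equivalent group with 1 intact paternal Pou5f1 allele, gave the genes of the scale: those called from early to late ICM in them and also measured in the analysis of all Ctrl and KO embryos, 1155 that rose and 886 that fell. The mean log2 CPM of the former minus that of the latter was set to 0 at the mean of the Oct4 Ctrl early ICMs and to 1 at the mean of their late ICMs. The 8 Sox2 Ctrl early ICMs stretched from 0.26 to 0.71 with a median of 0.54. In rising order they were embryo 2 at 0.26, 5 at 0.36, 7 at 0.40, 4 at 0.50, 15 at 0.57, 11 and 9 at 0.69 and 10 at 0.71. The late ICMs ran from 0.69 in embryo 2-3 over a median of 0.81 to 0.99 in embryo 2-6. The SD was 0.17 in the early and 0.10 in the late group, within the range of 0.07 to 0.18 of the other early and late ICM groups of the study, and the 2 highest early embryos, 9 and 10, lay above the lowest late one. Oct4 Ctrl early ICMs, which define the 0, lay between -0.16 and 0.27, and their late ICMs between 0.83 and 1.16. Sox2 KO ICMs sat at 0.36 to 0.53 when early and 0.40 to 0.72 when late. Sox2 Ctrl morulae, collected without culture, were at -0.02 to 0.08. These positions are given as a description with no test.

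**Figure D1:**
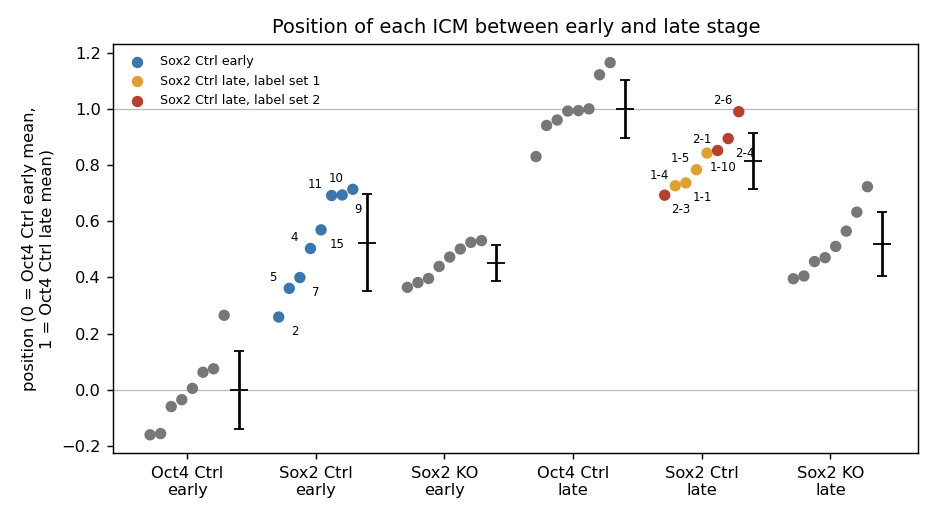
Position of each ICM on a scale where 0 is the mean of the Oct4 Ctrl early ICMs and 1 the mean of their late ICMs, for 6 groups of 8 embryos, with the mean ± SD as a bar beside each group and Sox2 Ctrl embryos numbered and coloured by stage and label set. The Sox2 Ctrl early ICMs spread from 0.26 to 0.71 and the late ICMs from 0.69 to 0.99.

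From early to late, 326 of 14186 genes were called, 2.3% of those tested, of which 238 (1.68%) rose and 88 (0.62%) fell. The median change of all genes was 0.03. Without the minimum change of 1, 780 genes passed the adjusted p, 401 higher and 379 lower. Ranges of the 8 late and 8 early ICMs were fully apart for 80 genes (0.564%), 19 of them called. The number of calls leaned on single embryos at both ends: it was 208, 175 and 205 without early ICM 2, 5 or 7, and 216 and 181 without late ICM 2-4 or 2-6. Those 3 early ICMs are the lowest on the stage scale and those 2 late ICMs the highest.

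The integrated stress response held the most calls of any pathway list examined. Of its 22 members tested, 12 rose and none fell, where 1.68% of all genes rose. Above 0 lay 21 of the 22, against 7404 of all 14186 genes, and the median change was 1.22 against 0.03. Asns, which makes asparagine (mm10 chromosome 6, 7675169 to 7693254, minus strand), ran from 25.0 over a median of 91.6 to 364 CPM in early ICMs and from 179 over 350 to 573 CPM in late ones. Early ICMs 2, 4, 5 and 7 were all between 25.0 and 52.0 CPM, and embryos 9, 10, 11 and 15 between 131 and 364, and only embryo 11 lay within the late range. Its change was 1.50 ± 0.40 (SE, adjusted p 0.0291, edgeR's quasi-likelihood test), a call lost in 9 of 30 alternative analyses. Nupr1, a small stress-induced chromatin protein, was at 0 to 83.9 CPM with a median of 30.9 in early ICMs and at 118 to 186 CPM with a median of 148 in late ones. The groups did not overlap, and the same early embryos 2, 4, 5 and 7 were lowest, at 13.3 CPM or less. The change of Nupr1 was 2.07 ± 0.47 (adjusted p 0.0126, edgeR).

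The promoters of 4 called stress genes are shown for the motif TGATGNAA, because it is the core of the element that ATF4 and CEBP proteins are known to bind. The sequences are parts of the RefSeq promoters of GRCm38.p6 (mm10), read 5′ to 3′ on the strand of the gene, with capitals for the motif. Asns has it in the forward direction, at chr6:7693210-7693359 on the minus strand. In the other genes it reads in reverse complement, at chr2:119350992-119351141 (Chac1, plus strand), chr7:126625471-126625620 (Nupr1, minus strand) and chr1:191183334-191183483 (Atf3, minus strand).
Chac1: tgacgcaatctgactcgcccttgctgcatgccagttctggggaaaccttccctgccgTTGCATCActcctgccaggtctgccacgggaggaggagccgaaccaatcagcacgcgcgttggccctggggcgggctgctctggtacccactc
Nupr1: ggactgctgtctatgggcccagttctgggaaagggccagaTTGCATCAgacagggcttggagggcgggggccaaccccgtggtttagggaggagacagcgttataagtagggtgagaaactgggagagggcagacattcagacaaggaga
Atf3: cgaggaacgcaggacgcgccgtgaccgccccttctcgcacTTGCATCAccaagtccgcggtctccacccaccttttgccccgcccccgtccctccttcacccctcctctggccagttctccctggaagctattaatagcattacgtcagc
Asns: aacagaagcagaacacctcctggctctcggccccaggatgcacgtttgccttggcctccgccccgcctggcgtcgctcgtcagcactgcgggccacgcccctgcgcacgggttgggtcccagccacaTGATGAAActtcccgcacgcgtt
A promoter was matched for 20 of the 22 members tested, and 6 of these held the motif on either strand, 5 of them among the 10 called genes with a promoter. The fifth called one is Trib3, where the match starts 15 bases after the start. Over all 32851 promoters of this length the share was 3.97% (1304). A match is only a run of letters, and nothing was measured here about binding.

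Among the other transcription factors and regulators of the pathway, Ddit4, an inhibitor of the growth kinase mTORC1, and Cebpb, a partner of ATF4, had separate ranges. Ddit4 went from 1.99 to 18.2 CPM (median 8.39) in early ICMs to 20.8 to 42.1 CPM (median 29.8) in late ones, and its change was 1.67 ± 0.34 (adjusted p 0.00663, edgeR). Cebpb, which overlaps Tmem189 on the opposite strand, went from 2.98 to 15.6 CPM up to 15.8 to 45.5 CPM, with a change of 1.60 ± 0.29 (adjusted p 0.00428). Every late embryo was thus above every early one for both. Ddit3, the death-associated factor CHOP, rose by 1.70 ± 0.38, and Trib3, a pseudokinase that restrains ATF4, by 1.78 ± 0.43. Atf3 rose by 1.96 ± 0.53 at levels under 10 CPM in every early ICM. Ddit3 overlaps Mars on the opposite strand, and whether the counting used the strand is not stated in the sources used here. Chac1, which degrades glutathione, had the largest change of the list at 3.57 ± 0.72, from 0 to 5.01 CPM up to 1.21 to 55.7 CPM. That rests on 10 UMIs in all early ICMs and 127 in the late ones. Late ICMs 2-4 and 2-6 were highest, at 35.4 and 55.7 CPM.

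Slc7a3, a cationic amino acid transporter, was at 0.963 to 21.3 CPM (median 1.77) in early ICMs and 6.05 to 85.3 CPM (median 33.4) in late ones, a change of 2.42 ± 0.55 (adjusted p 0.013, edgeR). Early ICMs 2, 4, 5 and 7 were at 1.11 CPM or less, and the groups overlapped through early embryos 9, 10 and 11 and late embryos 1-4 and 2-3. Slc7a5, the large neutral amino acid carrier, rose by 1.46 ± 0.33 and Slc7a1 by 1.33 ± 0.40. Mthfd2, of the mitochondrial folate cycle, rose by 1.02 ± 0.26. The transcript of Atf4 itself was at 245 to 407 CPM in early and 245 to 414 CPM in late ICMs, a change of 0.19 ± 0.13 with an adjusted p of 0.418 in edgeR, and the serine synthesis enzymes Phgdh and Psat1 changed by -0.56 (adjusted p 0.148) and 0.44 (0.083). The carrier Slc38a2 was not called (0.82, adjusted p 0.123), and the carrier subunit Slc3a2 (0.73) and Sesn2 (0.78) passed the adjusted p but not the minimum change. Outside the list, Atf5, a related stress-induced factor that overlaps Nup62 and Il4i1 on the opposite strand, went from 1.11 to 10.0 CPM up to 12.7 to 40.9 CPM without overlap and rose by 2.34 ± 0.34 (adjusted p 0.000768).

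**Figure D2:**
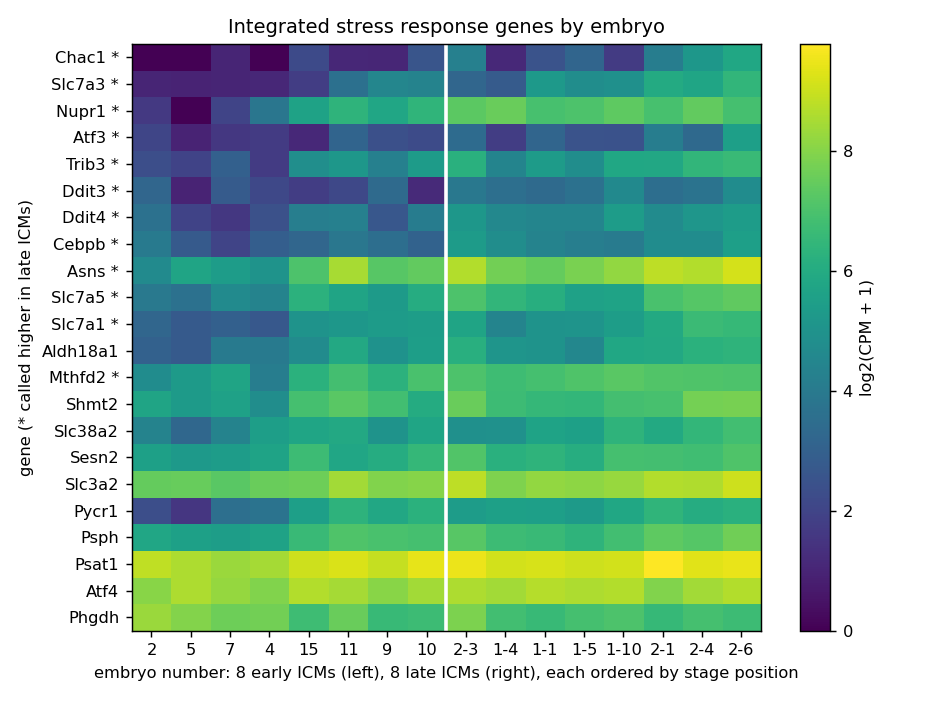
Level of the 22 integrated stress response genes tested, as log2(CPM + 1), in each early (left) and late (right) ICM, ordered within stage by position from early to late, with genes in order of change and an asterisk for the 12 called ones. The 4 early ICMs lowest in position, 2, 5, 7 and 4, are the darkest columns for Asns, Nupr1, Trib3 and Slc7a3.

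The stress list depended on which late embryos entered. With the 4 late ICMs whose label numbers begin with 1 (label set 1) as the only late group, 0 of the 22 were called and the median change was 0.59, and with those whose numbers begin with 2 (label set 2) it was 15 and 1.65. With the presence of Y-linked UMIs as a covariate 6 were called (median 1.10). Leaving out 1 embryo at a time gave 8 to 14. Without late ICMs 1-10, 2-4 and 2-6, the 3 with the highest summed trophectoderm markers, 1 was called (median 0.91). Late ICMs 2-4 and 2-6 were also the highest in summed primitive endoderm markers, and the part of these markers' levels in the stress result was not tested. Of the 12 genes called, 10 were also called between Oct4 Ctrl early and late ICMs, in the analysis of 96 embryos. A separate analysis of Oct4 Ctrl embryos alone gave the genes of the stage scale. It called 15.7% of all genes and, in the same direction, 53.4% of the 326.

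Genes of LIF and STAT3 signalling included 4 risers among 14 tested, where 1.68% of all genes rose, with a median change of 0.55 and 13 above 0 (all genes 7404 of 14186). With only late label set 1 the count was 1, and leaving out 1 embryo gave 4 or 5. Socs3, the feedback inhibitor that STAT3 induces, ran from 1.22 over 4.01 to 13.8 CPM in early ICMs and from 10.9 over 31.3 to 64.8 CPM in late ones. The groups met only through early ICM 9 and late ICMs 1-1, 1-4 and 1-5. The change was 2.48 ± 0.41 (adjusted p 0.00277, edgeR). Bcl3, an NF-kB family coactivator, had separate ranges of 6.95 to 42.6 CPM and 45.6 to 73.8 CPM and rose by 1.35 ± 0.27 (adjusted p 0.00633). Junb, an AP-1 subunit that overlaps Prdx2 on the opposite strand, rose by 1.48 ± 0.31, and Il6st, the shared receptor chain gp130, by 1.16 ± 0.25. The ligand Lif (0.70, adjusted p 0.47), its receptor chain Lifr (1.02, 0.153) and Stat3 (0.11, 0.635) were not called. The promoter of Socs3 is shown for its TTCNNNGAA motif, the palindrome that STAT proteins are known to bind, in capitals, at chr11:117969467-117969566 on the minus strand, 200 to 101 bases before the start (RefSeq, GRCm38.p6).
Socs3: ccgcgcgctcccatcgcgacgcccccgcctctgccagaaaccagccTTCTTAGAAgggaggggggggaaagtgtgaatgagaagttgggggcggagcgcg
That motif was in 1 of the 13 promoters matched for this list and in 8.30% of all promoters (2726). It was also in 4 of the 20 promoters matched for the stress list, among them Nupr1, where the sequence above has it in lower case. The motif TGATGNAA was in 0 of the 13.

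MEK was inhibited throughout. Of 16 genes of the FGF and MEK pathway, Egr1, an immediate-early factor, was the 1 called (1.68% of all genes rose), with a median change of 0.58 for the list. Leaving out 1 embryo gave 1 to 4, the most without late ICM 1-1. With only late label set 1 it was 1 higher and none lower, and with only set 2 it was 4 higher and 1 lower. Egr1 was at 74.1 to 223 CPM (median 144) in early ICMs and at 221 to 665 CPM (median 331) in late ones, a change of 1.29 ± 0.23 (adjusted p 0.00412, edgeR). Only the early embryo 9 and the late embryo 2-3 met, at 223 and 221 CPM, and late embryo 2-1 stood alone at 665. Fos was at 12.9 to 63.6 and 18.5 to 171 CPM (1.21 ± 0.39, adjusted p 0.0712), Spry4 gave 1.23 (adjusted p 0.0549) and Dusp6, a phosphatase that closes the same loop, -0.85 (adjusted p 0.0641), so none of these passed. Spred2, an inhibitor of the pathway, passed the adjusted p (0.0062) at -0.70.

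Of 33 naive pluripotency genes tested, 3 rose and none fell, where 1.68% of all genes rose, and the median change was 0.17 against 0.03 for all genes. Leaving out 1 embryo gave 2 to 5, the most without early ICM 10. With only late label set 1 it was 4 higher and none lower, and with only set 2 it was 1 higher and 2 lower. Dppa5a, an RNA-binding protein of pluripotent cells (mm10 chromosome 9, 78367052 to 78368177, minus strand), was at 1152 to 2428 CPM (median 1560) in early ICMs and 2193 to 5086 CPM (median 3666) in late ones. The ranges met through early embryo 10 and late embryo 2-3. Its change was 1.09 ± 0.17 (adjusted p 0.00188, edgeR), the largest gain in mean CPM of any gene eligible for naming. Morc1, a silencer of transposons, rose by 1.37 ± 0.31 and Prdm14, a repressor of FGF signalling and DNA methylation, by 1.02 ± 0.26.

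The core factors did not reach the minimum change. Pou5f1, which overlaps the antisense gene Gm19553, went from 40.6 to 90.2 CPM (median 54.8) to 77.3 to 226 CPM (median 96.2), a change of 0.96 ± 0.21 with an adjusted p of 0.00987 in edgeR. Sox2 (mm10 chromosome 3, 34650405 to 34652461), which lies within Sox2ot on the same strand, was at 74.5 to 198 CPM (median 95.4) in early and 96.2 to 289 CPM (median 171) in late ICMs. The change of Sox2 was 0.71 ± 0.21 (adjusted p 0.0484), with every late embryo above the early median. Klf4 passed the adjusted p at 0.66, while Nanog (0.37, adjusted p 0.142), Esrrb (0.22, 0.436) and Fgf4 (0.98, 0.0645) did not. Zfp42 and Utf1 lay at -0.40 (0.0826) and -0.41 (0.143), and all 8 late embryos were below the early median for both.

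**Figure D3:**
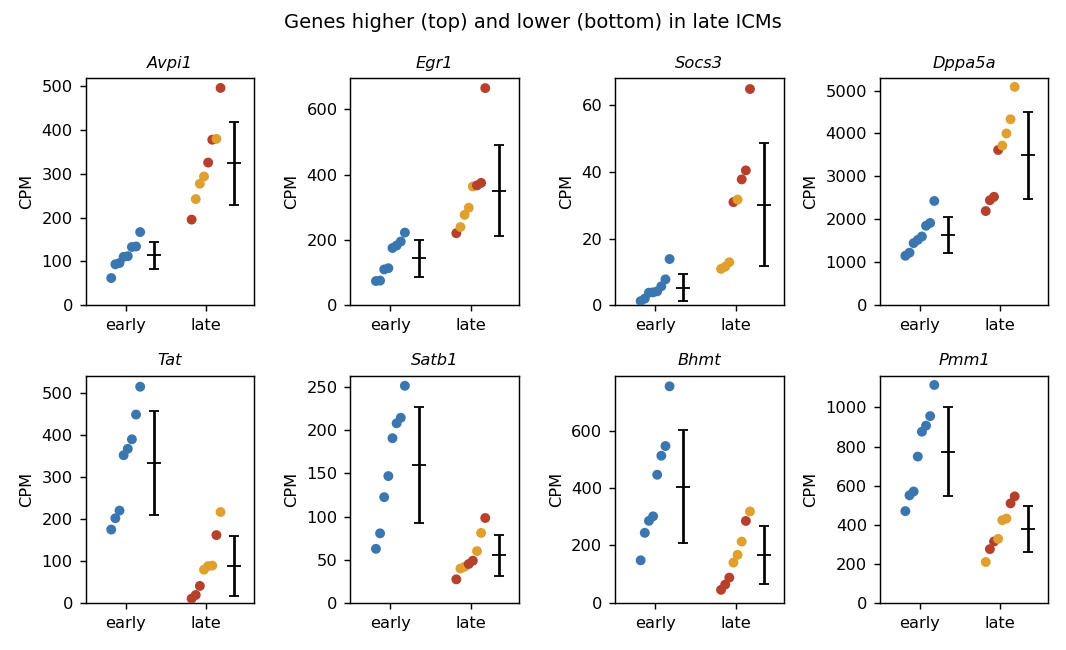
CPM of 4 genes higher and 4 genes lower in late than in early Sox2 Ctrl ICMs, 8 embryos a stage, with the mean ± SD as a bar and late embryos coloured by label set. Avpi1 has separate ranges, at 62.0 to 167 CPM in early and 195 to 496 CPM in late ICMs, and early ICMs 10 and 11 are within the late range of Tat.

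Outside these lists, Avpi1 had the lowest adjusted p of all risers. It is a gene named for its induction by vasopressin (mm10 chromosome 19, 42123273 to 42129059, minus strand), and was at 62.0 to 167 CPM (median 111) in early ICMs and 195 to 496 CPM (median 310) in late ones, with no overlap. The change was 1.51 ± 0.18 (adjusted p 0.000241, edgeR). Mycn, a growth-promoting factor of the MYC family, went from 4.82 to 19.2 CPM (median 10.7) to 14.5 to 155 CPM (median 42.7), a change of 2.61 ± 0.46 (adjusted p 0.00294). Late embryos 2-1, 2-4 and 2-6 were highest, at 93.3, 130 and 155 CPM. Lgals1, the lectin galectin-1, rose by 2.61 ± 0.44 from 32.9 to 107 CPM up to 74.4 to 1165 CPM, with late embryos 1-10 and 2-6 highest. It has 2 pseudogenes by name, so its counts carry that uncertainty. The remaining large rises were F2r, a thrombin receptor (3.88 ± 0.82), Htra1, a secreted protease that overlaps Fgfr2 (2.65 ± 0.52), Car2, a carbonic anhydrase (2.05 ± 0.56), and Rcn1, a calcium-binding protein of the endoplasmic reticulum (1.92 ± 0.57). F2r and Car2 were highest in late ICM 2-6, at 121 and 85.3 CPM. Car2 and Rcn1 were the least firm of these, losing their call in 11 and 16 of 30 alternative analyses.

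Of 22 trophectoderm genes 7 rose, of 18 primitive endoderm genes 6 rose, and none fell, where 1.68% of all genes rose. The median changes were 0.97 and 0.98. Over genes at 20 CPM or more, 3 of 13 and 4 of 13 rose, and the medians were 0.14 and 0.44. With the Y-linked covariate 1 and 0 were called. In limma voom with quality weights it was 1 and 2, and in limma on rlog values 3 and 2. With only late label set 1 it was 5 trophectoderm genes higher and, of primitive endoderm genes, 1 higher and 2 lower, and with only set 2 it was 5 higher and 1 lower against 7 higher. The trophectoderm count dropped to 4 without early ICM 2, 5 or 15 and to 3 without late ICM 1-10 or 2-6. The primitive endoderm count dropped to 2 without early ICM 2, 4 or 5 or late ICM 2-4 or 2-6, and to 3 without early ICM 7. Summed over 15 trophectoderm markers, early ICMs held 243 to 735 CPM (median 547) and late ICMs 325 to 3131 CPM (median 656). Late embryos 1-10, 2-6 and 2-4 had 3131, 2118 and 1126 CPM and the other 5 were within 325 to 805. Over 18 primitive endoderm markers the sums were 734 to 1696 CPM (median 1304) and 922 to 3867 CPM (median 1384), with 2-6 and 2-4 highest at 3867 and 2625. The 13 markers of epiblast summed to 2540 to 5193 CPM in early and 3659 to 5581 CPM in late ICMs, above the other lists at both medians. Of the markers summed, Ascl2 and Foxa2 had 0 UMIs in the early ICMs and none was at 0 over the late ones. Ttr, a primitive endoderm marker too low to be tested and not summed, had 0 UMIs in early and 3 in late ICMs.

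Krt18, a keratin of trophectoderm (mm10 chromosome 15, 102028180 to 102032027, plus strand), was at 14.8 to 100 CPM (median 63.9) in early ICMs and 23.9 to 1188 CPM (median 133) in late ones. Late embryos 1-10, 2-6 and 2-4 had 1188, 831 and 390 CPM, and 4 of the 8 late ICMs were below the early median. Its change was 2.52 ± 0.63 (adjusted p 0.0209, edgeR), while its partner Krt8 gave 1.21 (adjusted p 0.149) and Cdx2, the defining factor of trophectoderm, was not called either (1.08, adjusted p 0.296). Gata2 rose by 3.69 on 9 early and 124 late UMIs, and Tspan8, a tetraspanin, by 2.63 ± 0.66. Elf5, Krt7, Plac1 and Id2 were also called. Of the 22 trophectoderm genes 17 lay above 0, and among the others were Hand1 (-1.35, adjusted p 0.125), Tead4 (-0.26, 0.28) and Tfap2c (-0.04, 0.956). Lama1, the basement membrane laminin chain made by primitive endoderm (mm10 chromosome 17, 67697259 to 67822647), was at 1.25 to 63.9 CPM (median 6.47) and 9.68 to 478 CPM (median 51.1), a change of 3.16 ± 0.71 (adjusted p 0.012). Late embryos 2-6 and 2-4 had 478 and 245 CPM. Gata4 rose by 2.40, Sparc by 1.20 and Lamc1, whose call was lost in 11 of 30 alternatives, by 1.17. Sox7 and Foxa2 were called on 2 and 0 early and 81 and 29 late UMIs, the latter found in 4 embryos. Both passed the gene filter only through late ICMs, so a rise was the only call open to them. The same holds for Krt7, on 3 early and 38 late UMIs. Gata6 went the other way at -0.55 (adjusted p 0.386), with every late embryo below the early median of 421 CPM, and Pdgfra (-0.45) and Sox17 (0.79) were not called.

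Leaving out late ICMs 1-10, 2-4 and 2-6, chosen for their trophectoderm sums after the data were seen, left 44 genes called in all, 38 of them among the 326. No trophectoderm or primitive endoderm gene and 1 of the 22 stress genes was then called, and the median changes of those lists were 0.21, 0.33 and 0.91. The LIF list had 3 calls, of which Socs3 and Il6st were among the original 4. How much of the other changes comes with these embryos' marker levels was not tested.

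**Figure D4:**
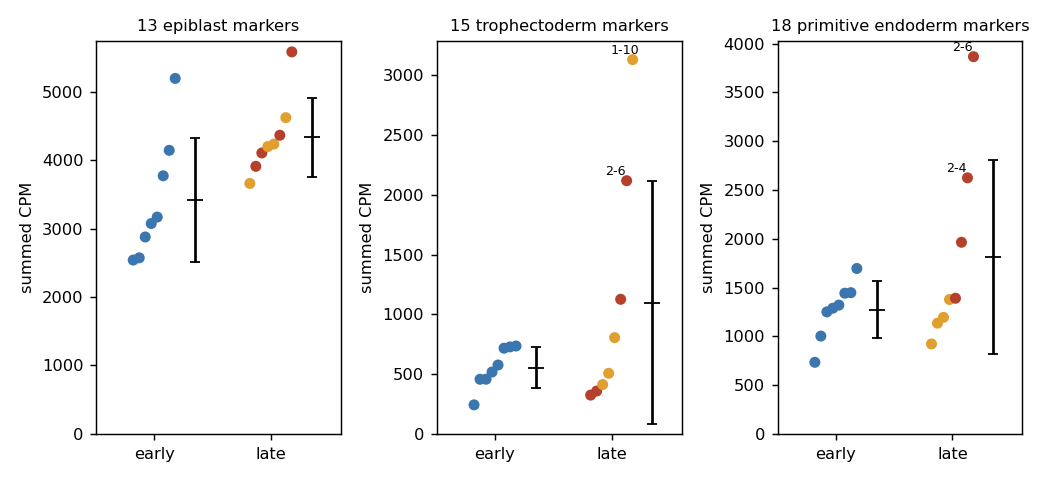
Summed CPM of 13 epiblast, 15 trophectoderm and 18 primitive endoderm markers in each early and late Sox2 Ctrl ICM, with the mean ± SD as a bar and late embryos coloured by label set. Late ICM 1-10 reaches 3131 CPM of trophectoderm markers and late ICM 2-6 reaches 3867 CPM of primitive endoderm markers, above all early embryos.

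Falls were fewer than rises. The largest losses in CPM among genes eligible for naming were those of Pmm1, Tat, Bhmt, Gpd1l, Ctsc and Gldc. Tat, tyrosine aminotransferase (mm10 chromosome 8, 109990437 to 109999803, plus strand), fell from 175 to 515 CPM (median 360) to 10.2 to 217 CPM (median 83.4). Late embryos 2-6, 2-1 and 2-4 were lowest, at 10.2, 18.9 and 40.4 CPM, and the groups overlapped only through early embryos 10 and 11 and late embryo 1-4. The change was -1.94 ± 0.38 (adjusted p 0.0062, edgeR). Bhmt, which methylates homocysteine from betaine, went from 148 to 754 CPM (median 374) to 45.5 to 318 CPM (median 154), a change of -1.30 ± 0.34 (adjusted p 0.0252). Early ICM 2 was highest at 754. Gldc, the glycine decarboxylase, and Pmm1, a phosphomannomutase of sugar metabolism, each changed by -1.03. Pmm1 was at 470 to 1115 CPM in early and 209 to 545 CPM in late ICMs, with medians of 812 and 376 CPM.

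Pemt and Gpd1l also fell. Pemt, which turns phosphatidylethanolamine into phosphatidylcholine, was at 71.4 to 707 CPM (median 191) in early and 49.5 to 174 CPM (median 79.6) in late ICMs, and Gpd1l, of glycerol phosphate metabolism, at 92.7 to 1124 CPM (median 182) and 55.7 to 156 CPM (median 98.3). For both, early ICM 2 stood highest and early embryos 9, 10 and 11 were within the late range, for Pemt embryo 15 too. The changes were -1.44 ± 0.39 (adjusted p 0.0297, edgeR) and -1.60 ± 0.40 (0.0221). Ctsc, the lysosomal protease cathepsin C, changed by -1.0 ± 0.24 and lost its call in 17 of 30 alternatives, against 13 for Pemt and for Gldc and 11 for Pmm1.

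Transcriptional regulators that fell were Osr2, a zinc finger factor (-2.05 ± 0.42), Hhex, a homeobox factor of endoderm (-2.01 ± 0.41), Cited1, a co-regulator (-1.87 ± 0.41), and Tbx20, a T-box factor (-1.46 ± 0.31). Satb1, which organises chromatin (mm10 chromosome 17, 51736187 to 51833290, with several genes nested in it), went from 62.6 to 251 CPM (median 169) to 27.3 to 98.4 CPM (median 47.0). Early embryos 10 and 11 were within the late range. The change of Satb1 was -1.54 ± 0.26 (adjusted p 0.00294, edgeR). The zinc finger gene Zfp820 (-1.52), the lectin gene Lgals8 (-1.51, overlapping Heatr1), Frrs1l (-1.47) and Actn2, an alpha-actinin (-1.43), completed the 12 largest falls among genes that passed the naming rule, which asks for 20 CPM in early ICMs and every late embryo below the early median.

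In the other pathway lists, counts of risers are to be read against the 1.68% of all genes that rose. Of the endoplasmic reticulum chaperones 3 of 16 rose, Dnajc3 (1.27), Herpud1 (1.23) and Creld2 (1.07), while the central chaperone Hspa5 gave 0.60 (adjusted p 0.128). The chaperone count was 0 with the Y-linked covariate, 0 higher and 1 lower with only late label set 1 and 8 with only set 2. It was 0 without early ICM 11 or late ICM 2-6 and 1 without early ICM 2, 5 or 9 or late ICM 2-1 or 2-4. Among nutrient and lipid genes 3 of 21 rose, the fatty acid carrier Fabp3 (1.63), the glutamine carrier Slc1a5 (1.12) and Tdh, a threonine-degrading enzyme of mouse pluripotent cells (1.10). Leaving out 1 embryo gave 1 to 4, the fewest without early ICM 5, 7 or 15 or late ICM 2-6. The nutrient count was 1 with the Y-linked covariate, 1 with only late label set 1 and 2 with only set 2. Of 20 Wnt genes 2 rose, 8 lay above 0 and the median change was -0.16. The risers were Tcf7l1, a repressor at Wnt targets (1.78 ± 0.43), and Wls, which Wnt secretion needs, on 1 early and 25 late UMIs. Wls passed the gene filter only through late ICMs, so a rise was the only call open to it. The Wnt count was 1 without early ICM 2, 4, 5, 7 or 15 or late ICM 1-5, 1-10 or 2-6, and 0 with the Y-linked covariate. Of 26 adhesion, matrix and lumen genes, Vim rose by 2.27 and Ocln, a tight junction protein, fell by 1.28. The count of risers was 0 with the covariate and 0 to 2 with 1 embryo left out, 0 without late ICM 2-4. With only late label set 1 it was 1 higher and 0 lower, and with only set 2 it was 3 higher and 1 lower. Falls are to be read against the 0.62% of all genes that fell. Of 21 imprinted genes tested, Grb10 (2.04) and Phlda2 (1.66) rose and Sfmbt2 fell (-1.01). Without early ICM 5, 7, 9 or 15 or late ICM 1-1, 2-1, 2-3 or 2-4 no imprinted gene fell, and 1 rose without early ICM 5 or late ICM 2-1 or 2-4. With the covariate 1 rose and 0 fell. Of 56 histone genes tested, the linker histone H1f0 rose (1.53) and Hist1h2bg fell (-1.52). No histone gene fell without early ICM 2, 4, 5 or 7 or late ICM 1-1, 1-10, 2-1, 2-4 or 2-6, nor with the covariate. No gene was called by edgeR among cholesterol synthesis, p53 and BCL2 family, DNA methylation, S phase, cyclin, ribosomal protein, proteasome or nuclear oxidative phosphorylation genes. The last had a median change of 0.23, with 65 of 81 above 0. At a change under 1 in size, 21 of them passed the adjusted p above 0 and 2 below it, where 401 and 379 of all 14186 genes passed the adjusted p at any size.

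Mitochondrial transcripts took a smaller share of late libraries. All genes of the mitochondrial chromosome together made up 4.84% ± 0.305 of UMIs in early and 3.59% ± 0.786 in late ICMs (SD, n = 8 each). A two-sided exact permutation test gave p = 0.00109, adjusted 0.00435 over 4 library measures. Early ICMs lay between 4.42% and 5.24%. The 4 late ICMs numbered from 1 were between 3.78% and 4.77% and those numbered from 2 between 2.51% and 3.52%, the latter entirely below the early range. The 13 mitochondrially encoded protein-coding genes all changed by less than 0, with a median of -0.53. None reached a change of -1, and 6 passed the adjusted p. Total UMIs and genes detected did not pass (p = 0.0873 and 0.280, exact permutation tests), and the X-linked share in the 5 early and 2 late embryos without Y-linked UMIs gave the smallest p that so few embryos allow, 0.0952.

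The early ICMs varied in named ways. Apart from Xist, Ddx3y and Eif2s3y, which follow sex, the largest SD of log2 CPM among them belonged to Rps3a3, Alppl2, Baiap2l1, Spp1, Nupr1, Magea5 and Foxd3. Alppl2, an alkaline phosphatase, was at 484 CPM in embryo 2, 189 in embryo 7 and 122 in embryo 5, and at 1.25 in embryo 10. Foxd3, a factor of the later epiblast, ran the other way, from 1.99 and 2.08 CPM in embryos 7 and 2 to 192 in embryo 10. Spp1, a secreted phosphoprotein, was at 7.29 CPM in embryo 2 and at 958 and 1171 CPM in embryos 10 and 4. Baiap2l1 was at 5.67 and 22.2 CPM in embryos 11 and 5 and at 234 to 599 in the others, and Rps3a3, which lies within Pde4d, was near absent in embryo 10 alone (6.26 CPM). Of the 5843 genes at 20 CPM or more in both stages, 51.7% had the larger SD in early ICMs, and the median SDs were 0.308 and 0.305.

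Sex differed between the stages. At least 10 Y-linked UMIs were found in early embryos 5, 10 and 15 and in all late embryos but 1-4 and 2-3, that is in 3 of 8 against 6 of 8. With this as a covariate 113 genes were called, 96 of them among the 326. Sex and stage are partly confounded in this group.

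The first digit of the late numbers, 1 or 2 with 4 embryos each, is not explained in the labels and early ICMs have none. Late ICMs numbered from 2 differed from those numbered from 1 in 74 of 13399 genes (0.552%), 34 higher and 40 lower, with edgeR. Named here after their values were seen, the 34 higher genes included Chac1 (2.91 ± 0.52), Gdf15 (2.70), Asns (1.01 ± 0.17, adjusted p 0.0225), Slc7a5 (1.19), Slc7a1 (1.26), Pdgfra (2.35), Sox17 (2.07) and Lama1 (2.88). Nr5a2, a nuclear receptor of naive cells, and the glucose carrier Slc2a1 were lower, at -1.54 and -1.26. Of the 326 stage genes, 11 were among these 74, all rising with both (3.37% of the former and 14.9% of the latter). Both tests use the same late ICMs, so this overlap and its shared direction are partly built in. Leaving out 1 late ICM at a time gave 10 to 153, the lowest without 2-4 and the highest without 2-3.

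In Oct4 Ctrl embryos the same stages differed in 2196 of 13954 genes (15.7%), in an analysis of those embryos alone. Their libraries held 784645 to 938150 UMIs when early and 525755 to 747472 when late, ranges that do not overlap as those of Sox2 Ctrl do. The part of depth in this count and in the differences below was not tested. Of the 326 Sox2 Ctrl genes, 174 were called in the same direction there (53.4% of 326 and 7.92% of 2196) and 4 in the opposite one. Of the 300 tested in both, 274 had the same sign. Of these, the 213 risers had a median change of 1.83 in Sox2 Ctrl and 1.69 in Oct4 Ctrl, and the 87 that fell -1.37 and -1.09. The 1207 Oct4 Ctrl risers tested here had a median of 1.61 in Oct4 Ctrl and 0.51 in Sox2 Ctrl, and the 852 that fell -1.40 and -0.34. Genes called in a group are larger there by their choice, so neither pair of medians compares the size of the stage change. The 2 lines share no embryo. A test of the difference itself, in a single edgeR analysis of 96 embryos, called 918 of 14053 genes (6.53%). In 392 the Sox2 Ctrl change was the higher one and in 526 the lower, but the split turned to 505 of 888 higher when libraries were scaled by total UMIs alone.

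Pou5f1, of which Oct4 Ctrl embryos carry 1 intact allele and Sox2 Ctrl embryos both, was among them. It changed by 0.95 in Sox2 Ctrl and by -0.81 in Oct4 Ctrl, a difference of 1.76 ± 0.28 (adjusted p 1.40e-06, edgeR). Ncl, the nucleolar protein nucleolin, which hosts small nucleolar RNA genes, stayed at 182 and 167 CPM (early and late means, scaled over 96 embryos) in Sox2 Ctrl and went from 693 to 119 CPM in Oct4 Ctrl. Its difference was 2.42 ± 0.18 (adjusted p 2.35e-20). Ddit4 began at 9.22 CPM in Sox2 Ctrl and at 49.8 CPM in Oct4 Ctrl early ICMs and ended at 29.0 and 30.3 CPM, a difference of 2.39 ± 0.62. Mboat1 (2.42) and Smpdl3a (2.28) also differed upward.

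Among called genes at 20 CPM or more in a Sox2 Ctrl ICM group, Car2, Grin1, Pycr1 and Bmp4 differed most in the other direction. Car2 went from 6.58 to 26.8 CPM in Sox2 Ctrl and from 0.661 to 68.7 CPM in Oct4 Ctrl, a difference of -4.35 ± 0.99 (adjusted p 0.000978, edgeR). Pycr1, a proline synthesis enzyme of the stress list, went from 34.1 to 54.0 CPM against 5.44 to 79.7 CPM, a difference of -3.14 ± 0.57 (adjusted p 2.41e-05). Bmp4 was at 32.1 and 23.3 CPM against 6.92 and 34.5 CPM. Grin1, a glutamate receptor subunit, went from 20.2 to 6.03 CPM against 17.4 to 51.7 CPM. Utf1, an epiblast chromatin factor, differed by -1.69 ± 0.27, Egr1 by -1.57 ± 0.47 and Fos by -1.75 ± 0.48. Of the 13 mitochondrially encoded genes 7 differed, against 6.53% of all genes, and the median change of the 13 was -0.53 here and 0.59 in Oct4 Ctrl, and mt-Atp6 went from 453 to 279 CPM against 293 to 711 CPM (difference -1.97 ± 0.28). Asns (2.01 in Oct4 Ctrl, 1.51 here) and Nupr1 (2.71 and 2.07) were not called different, with differences of -0.50 ± 0.54 and -0.65 ± 0.61.

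Embryos without Sox2 gave 117 calls of 13866 genes (0.844%) from early to late ICM, 17 of them shared with the 326 in direction (5.21% of 326 and 14.5% of 117). Of 292 Sox2 Ctrl genes tested there 240 had the same sign, with medians of 1.78 and 0.57 for risers and -1.37 and -0.53 for fallers, genes again chosen for their Sox2 Ctrl call. The test of the difference called 6 of 14053 genes (0.0427%), with 1494 at an unadjusted p under 0.05. Over only the 32 ICMs compared (13493 genes), DESeq2 called 24 and edgeR 1. Pemt went from 242 to 89.0 CPM in Sox2 Ctrl and from 202 to 300 CPM in Sox2 KO, a difference of -2.02 ± 0.44 (adjusted p 0.0394, edgeR). Gpd1l went from 289 to 95.5 CPM against 223 to 293 CPM, a difference of -2.0 ± 0.44, and Ankzf1, which overlaps Atg9a and Glb1l, differed by -1.94 ± 0.41. For all 3 the late Ctrl mean was lower than the early one and the late KO mean higher. Gemin5, of the SMN complex, differed by -1.18 ± 0.26, Rbbp5, a subunit of histone H3K4 methyltransferases, by 1.05 ± 0.23, and Xrcc1, a DNA repair scaffold outside the naming rule and added after its value was seen, by -1.12 ± 0.25. All 6 had an adjusted p of 0.0394.

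These 6 calls were lost without several single Sox2 Ctrl embryos: 0 remained without early ICM 2, 5 or 7 or without late ICM 1-1, 1-5, 1-10, 2-1, 2-4 or 2-6. Avpi1, which changed by 1.51 in Sox2 Ctrl and 0.06 in Sox2 KO, differed by 1.46 ± 0.40 with an adjusted p of 0.117 in edgeR and was not called. The same held for Asns (0.64 ± 0.57, adjusted p 0.754) and Lgals1 (2.94 ± 0.80, 0.109). The differences from Oct4 Ctrl and from Sox2 KO share the Sox2 Ctrl embryos.

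**Figure D5:**
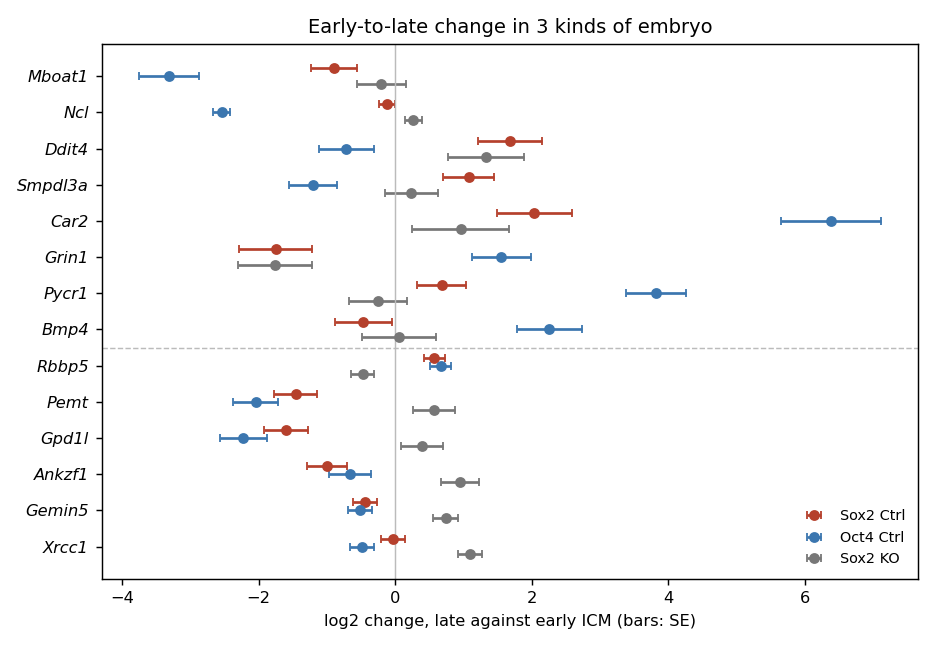
Log2 change from early to late ICM with its SE in Sox2 Ctrl, Oct4 Ctrl and Sox2 KO embryos (8 early and 8 late each, from the analysis of 96 embryos), for 8 genes whose change differed from Oct4 Ctrl (above the dashed line) and 6 whose change differed from Sox2 KO (below). Pemt and Gpd1l are below 0 in both Ctrl groups and above 0 in Sox2 KO.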

How the data were processed

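Single embryos or ICMs were sequenced as 3′-enriched libraries with UMIs. Per the study's methods, the authors used UMI-tools, Cutadapt, TopHat2 (mm10, GENCODE vM23), featureCounts (strand use not given in the sources used here) and TRUmiCount. The deposited counts are whole UMIs for 29022 genes, and the deposited rlog values are a log2 scale made by the authors with DESeq2 for 15747 genes. ERCC spike-ins had been added to each library, and their reads were not analysed here. Groups came from the labels. The members and gene lists were chosen with earlier results of these data known.

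The gene filter asked for a UMI in 0.5 or more of the embryos in 1 or both stages. The remaining genes were tested with edgeR 4.0.16 in R 4.3.3 (TMM, glmQLFit, glmQLFTest), 14186 genes over the 16 embryos. A call needed a log2 change of 1 or more in size together with an adjusted p (Benjamini-Hochberg) below 0.05. SEs are the size of the change over the square root of F. Differences between groups were interaction contrasts over 96 embryos in 12 groups (14053 genes). The genes named for a comparison are, among called genes at 20 CPM or more in the higher group with every late embryo on 1 side of the early median, the 12 largest changes and the 6 largest CPM differences each way, then the 10 most variable in early ICMs and 4 a direction that differed from each other group. Predicted genes were passed over. Members of the lists were named by their part in the pathway and their values, after these were seen. Library measures used exact permutation tests, two-sided. No 2 embryos of a stage agreed within sampling noise: over 28 pairs each, the lowest chi-square per gene was 3.19 in early and 2.91 in late ICMs. The steps were tested on simulated counts. Alternatives used DESeq2 1.42.0, limma 3.58.1 (voom, rlog), other scalings and filters, thinned counts, a Y-linked covariate, each label set, and each embryo left out. Promoters came from RefSeq (GRCm38.p6). Overlaps with other genes came from GENCODE vM21, and the comparisons the authors made were not used.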

Additional observations from a re-analysis of the deposited data

Results flagged for a closer look

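Library measures, marker sums and the genes named for their change made 80 sets of 8 values, a set for each stage. A single embryo stood apart from the other 7 by Dixon's criterion in 10 of them. Chance flags about 1 in 20 groups of normally distributed values, but the 10 are CPM, not logs, of genes picked for their change, so they are not read against that rate. Early ICM 9 was apart in Lama1 (63.9 CPM) and Rcn1 (35.2 CPM), early ICM 11 in Asns (364 CPM), early ICM 10 in Tspan8 (67.7 CPM) and early ICM 2 in Gpd1l (1124 CPM). Among late ICMs, embryo 2-6 was apart in F2r (121 CPM) and Car2 (85.3 CPM), embryo 2-1 in Egr1 (665 CPM) and Osr2 (31.4 CPM) and embryo 1-4 in Hhex (12.1 CPM). All were the highest of their group.

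Changes that differed from those of Oct4 Ctrl, by the interaction test in edgeR, were those of Mboat1 (difference in log2 change 2.42), Ncl (2.42), Ddit4 (2.39) and Smpdl3a (2.28) upward, and Car2 (-4.35), Grin1 (-3.30), Pycr1 (-3.14) and Bmp4 (-2.72) downward. Those that differed from Sox2 KO were Rbbp5 (1.05), Gemin5 (-1.18), Xrcc1 (-1.12), Ankzf1 (-1.94), Gpd1l (-2.0) and Pemt (-2.02). What lies behind these differences was not tested.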

How the results depend on the processing

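The 326 calls became 323 with DESeq2 (285 shared), 165 over genes at 20 CPM or more, 131 with limma on rlog values, 113 with the Y-linked covariate, 148 with only late label set 1, 478 with only set 2, 780 with no minimum change and 44 without the 3 late ICMs highest in trophectoderm markers. Fewer genes or embryos were tested in some of these, and the cause was not tested otherwise. Leaving out 1 embryo at a time gave 175 to 414 calls. Over 33 named genes and 30 alternatives, 838 of 990 values kept the call, 152 lost it and 0 changed sign. Lgals1, Mycn, Atf5, Tat, Satb1, Avpi1 and Egr1 were called in all 30.

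The 918 genes that differed from Oct4 Ctrl ranged from 836 to 1025 with 1 Sox2 Ctrl embryo left out. Early and late Sox2 Ctrl ICMs share no label number, so the stage comparison could not be paired. Embryos that share a number with Oct4 Ctrl embryos gave 578 with a replicate block and 250 without it, but of 7 pairs only 2 had correlated deviations above 0.1 and 3 matched best with their own number, so the numbers are not taken as pairs. The number of genes that differed from Sox2 KO, 6, ranged from 0 to 19 with 1 Sox2 Ctrl embryo left out. No Oct4 Ctrl or Sox2 KO embryo was left out. The number was 1 with edgeR over only the 32 ICMs compared, none of the 6. With DESeq2, run over the same 32 ICMs, it was 24, 4 of them among the 6. Embryos sharing a number gave 5 genes with the replicate block, 0 of them among the 6, and 0 without it, where 3 of 8 pairs had a correlation above 0.1 and 4 matched best with their own number. The 74 genes between the late label sets were 123 with DESeq2 and 10 to 153 with 1 late ICM left out. Positions on the stage scale changed by less than the spread between embryos under both alternatives tried. Genes at a few CPM rest on few molecules, and a change there may be missed at this depth.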

Other observations

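Sox2 MWT early ICMs, from mothers with an intact Sox2 gene and outside the groups compared, lay on the stage scale at 0.25 to 0.51 (mean 0.38 ± 0.09, SD, n = 7). The Sox2 Ctrl early ICMs had a mean of 0.52 ± 0.17 (n = 8), with embryos 9, 10, 11 and 15 above all 7 MWT embryos. No test of this difference was made. Late label sets 1 and 2 lay at 0.77 ± 0.05 and 0.86 ± 0.12 (SD, n = 4 each).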
